A study of Drosophila melanogaster with 2 samples.

Results

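The regions described here are 359 peaks of chromatin occupancy whose summits lay in an annotated exon and more than 500 bp from any transcript start. They were selected on the deposited score and on position: of 30000 peaks called on both replicates pooled, the 10000 with the highest score were taken, and the exonic ones away from starts made up 3.59% of these. The ChIP-seq material was the whole Drosophila melanogaster larva at the wandering L3 stage, strain CG9705-GFP, with the sexes pooled and the age not given. The line stably carries a transgene for CG9705 with GFP at the C terminus, and the fusion line was the only genotype. With 2 biological replicates and nothing to compare them with, every value below is a description, and its error is the value from each replicate's own list. The labels disagree on the libraries: both are called input in the free text, but CG9705 is given as the antibody target and a separate control is listed. They are treated here as ChIP samples, and if the free text were right the peaks would mark sites enriched in sheared chromatin. Whole larvae mix all tissues, so a site occupied in few cells and a site weakly occupied in many cannot be told apart.

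The CG9705 protein has a cold-shock domain, a fold that binds single-stranded DNA and RNA. ChIP-seq reads the DNA that is crosslinked to a protein, so a peak on an exon places the protein on that stretch of chromatin and says nothing of the RNA copied from it. In compact insect genomes exons often lie beside enhancers, promoters of neighbouring genes and insulators, the DNA elements bound by factors such as CTCF.

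The members fell into 4 classes by the part of the transcript under the summit. The 3' UTR, the untranslated stretch after the stop codon, held 150 of them. The 5' UTR held 79, exons of noncoding RNAs held 76 and coding exons held 54. Of the 359 peaks, 66 (18.4%) were in the authors' optimal set of 3533 reproducible peaks, against 35.3% of the 10000. The optimal set is the top of the same score ranking, so this share follows from the scores that chose the members and nothing is read from it.

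The stretches of DNA at the summits of 5 of the highest-scoring members are shown first, because these carry some of the strongest signal in exons. Each runs 5' to 3' on the plus strand of Release 6 of the genome (dm6), from RefSeq, with no capitals because no motif is marked.
lncRNA:Vinr, chrX:12751304-12751333: aattttgaaatataaattttgatatatgcc
lncRNA:CR44619, chrX:12752370-12752399: tacaaaaaaatatcgcacatccctgaacag
Raf, chrX:2296304-2296333: caaaatcttacaaatcgcagtatttacctg
CG7872, chrX:15579784-15579813: aaaagcacgccacattcgcgtgtttcctaa
baz, chrX:17178738-17178767: atcttttattaatatatgcaacttacttac

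The second set holds members with the letters AGGTGGCG, the core of the sequence bound by the insulator protein CTCF. They are shown because 5 of the 54 coding-exon members held this match. The core is in capitals, and the strand follows the coordinates.
klar, coding exon, chr3L:506255-506284, plus: acccagacccaAGGTGGCGctgctgtgcag
Hr4, 3' UTR, chrX:2006000-2006029, minus: tctctaaatacAGGTGGCGccactgaggaa
CG10357, coding exon, chr3L:3616466-3616495, minus: ataatagtacaAGGTGGCGctagtaaaata
Pde1c, coding exon, chr2L:11816528-11816557, plus: cgctggccgccAGGTGGCGcaattgtcccc
grk, coding exon, chr2L:8432086-8432115, plus: gaactggggtcAGGTGGCGgttctccggtg
sgg, coding exon, chrX:2659646-2659675, minus: cacttgccgccAGGTGGCGcttgtggcaga

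Next come 4 members of the 5' UTR class with the repeat CACACACA in capitals, shown because 16 of the 79 peaks of that class held these letters.
JIL-1, chr3L:11092324-11092353, minus: atccacccactCACACACAcacacactccg
Nup153, chrX:16600043-16600072, minus: aagcgttgccgCACACACAacaaaaaacgt
Pp2C1, chrX:4686285-4686314, plus: tttggcactctCACACACAcgtacaacgca
Eip75B, chr3L:17961186-17961215, plus: tcggtttttggCACACACAcagctttttgg

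The last set shows the 2 members that held TATCGATA, the DRE bound by the promoter factor DREF, in capitals. It is given because this motif was common at promoter peaks and rare here.
lncRNA:Hsromega, chr3R:21297817-21297846, plus: ttgaaagttgaTATCGATAtcgatccgtga
CG34132, 3' UTR, chr2L:7886119-7886148, plus: atgttttttctTATCGATAtgtgatgtggt

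Scores of the exonic peaks were low within the list. The score is the one the authors deposited, on a scale the sources do not state, and it is used only to rank peaks of 1 list. It ran from 43.5 to 1726 with a median of 57.6, beside medians of 68.3 for intron peaks, 72.0 for intergenic peaks and 81.9 for promoter peaks, which lie within 500 bp of a start. Noncoding exons had the highest median of the exon classes at 73.5, followed by 60.4 in 5' UTRs, 55.8 in 3' UTRs and 50.8 in coding exons. The exonic share was 2.10% among the first 1000 ranks, 1.40% among the next 1000 and 7.40% among the last 1000. In that last stretch 36 members lay in 3' UTRs and 14 in coding exons.

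**Figure D1:**
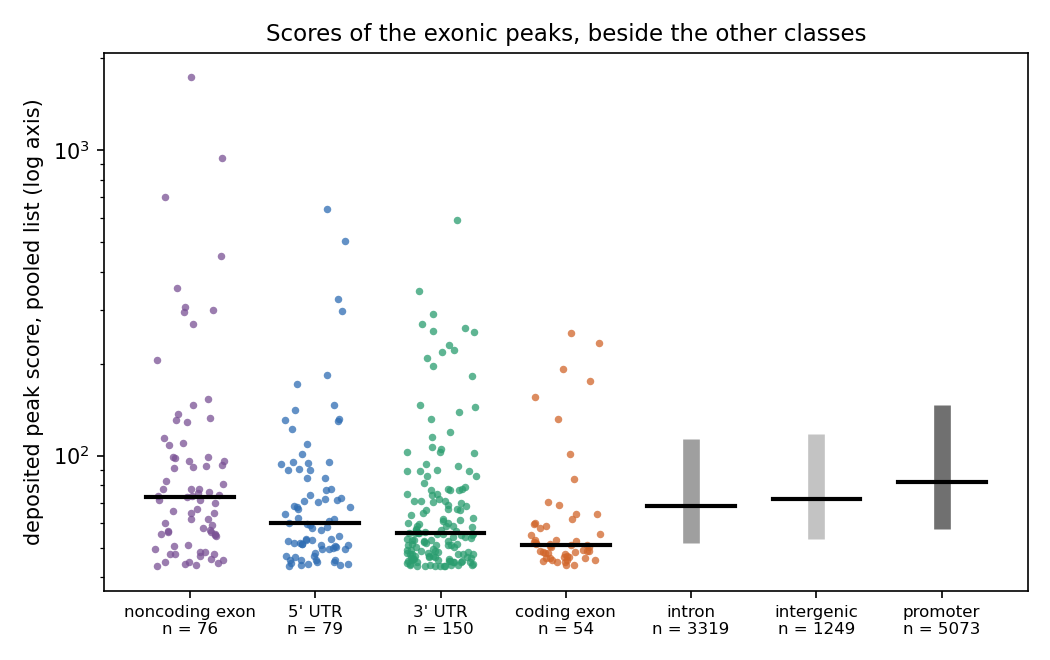
Deposited scores of the exonic peaks by class, on a log axis, with 1 point per peak and a black line at the median. Grey bars give the range from the lower to the upper quartile of the intron, intergenic and promoter peaks of the same list. Noncoding exons reach highest, to 1726, and coding exons have the lowest median, 50.8.

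At the rank limit the 3 last members were in Mrgn1 (score 43.55), lncRNA:CR44366 (43.51) and Cul2 (43.48), and the 3 first exonic peaks beyond it were in CREG (43.30), CG18549 (43.29) and Eip75B (43.28). At the limit on distance the nearest members lay 502 bp from a start in lncRNA:CR46204, 506 bp in lncRNA:CR44868 and 508 bp in Syp. Exonic summits just within the window included one at 499 bp in amn and one at 498 bp in Smurf. The first 100 bp beyond the window held 48 members, while the last 100 bp inside it held 65 exonic summits that the rule left out.

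Exon classes differed widely in how densely they held peaks, with 5' UTRs highest and coding exons lowest. Genome windows of 201 bp were given the class of their centre, and peaks were counted per Mb of each class. There were 75.2 peaks per Mb of 5' UTR away from starts, 69.1 per Mb of noncoding exon, 22.2 per Mb of 3' UTR and 3.07 per Mb of coding exon. Introns held 62.9, intergenic sequence 34.5 and promoters 280 per Mb. In the 10000 best peaks of replicate 1 alone the exon densities were 82.8, 75.5, 39.8 and 4.04 per Mb in the same order of classes, and in replicate 2 alone 88.5, 65.5, 24.1 and 6.77. Coding exons were thus lowest in every list, and 3' UTRs second lowest except in replicate 1, where intergenic sequence held 34.0. Noncoding exons held more than introns in every list, by a small margin in replicate 2, where introns held 62.2.

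Base composition moved with class, so densities were also taken within bins of GC content of the window. Coding exons of 35 to 45% GC held 4.54 peaks per Mb and introns of the same GC held 61.6. For 45 to 55% GC the values were 2.62 and 39.4, and for 55% or more they were 3.07 and 47.3. The low count in coding sequence was therefore present at each of these GC contents. In the pooled list the order of 5' UTRs, noncoding exons and introns changed with GC. In 5' UTRs the density was 123 per Mb at 35 to 45% GC and 57.6 at 45 to 55%, above introns, but 51.3 below 35% GC, where introns held 89.4, and 27.3 at 55% or more, below introns. Noncoding exons held 130 per Mb below 35% GC and 73.0 at 35 to 45%, above introns, and 34.4 at 45 to 55%, below them. At 55% GC or more noncoding exons held 0 pooled peaks in 0.0498 Mb, and 2 in each replicate's list. Some bins held few peaks, such as 8 and 4 pooled peaks in the lowest and highest 5' UTR bins. In replicate 1 noncoding exons of 45 to 55% GC held 39.7 per Mb and introns 33.7, the reverse of the pooled order. In replicate 2 5' UTRs below 35% GC held 76.9, near the 78.1 of introns.

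**Figure D2:**
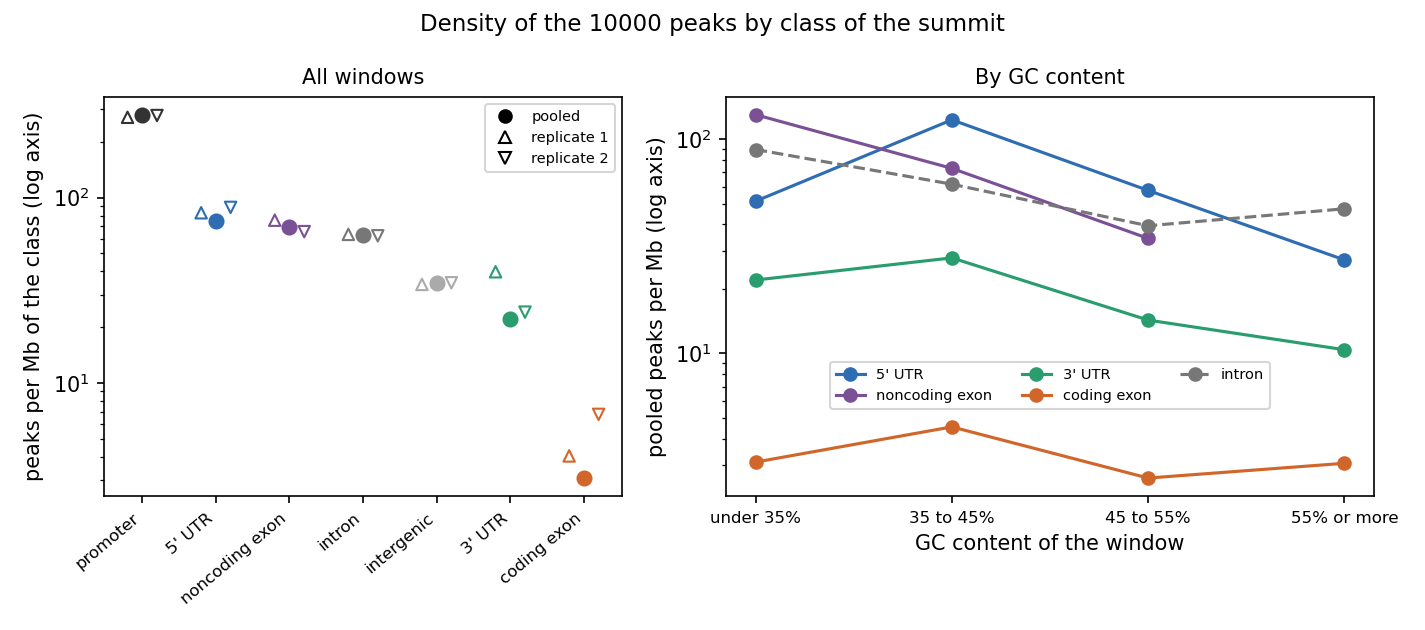
Peaks per Mb of sequence in each class on log axes, over all windows for the pool and for each replicate (left), and within bins of GC content for the pooled list (right, where a bin with no peak is not drawn). Coding exons lie lowest at 3.07 per Mb, and 5' UTRs and noncoding exons lie near introns at 62.9.

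Noncoding RNA exons held the strongest members. The strongest, on X at 12750857 to 12751635, covered 779 bp of lncRNA:Vinr, a long noncoding RNA of 1 exon. Its rank was 19 in the pool, 24 in replicate 1 and 14 in replicate 2. The next lay in the neighbouring lncRNA:CR44619, with a score of 939 and ranks of 64 and 58 in the replicates. A pair of weaker members sat in the same gene, at scores of 299 and 146, so this stretch of X held 4 members. Both replicates therefore placed the peaks in lncRNA:Vinr and the strongest in lncRNA:CR44619 near the top of their lists. These summits flanked a start of lncRNA:CR44619, the first 548 bp upstream and the second 518 bp downstream of it. Both peak intervals reached into the 500 bp window around that start. Across the noncoding exon class the intervals of 23 members (30.3%) reached into such a window.

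Further down, the member in lncRNA:CR43643 scored 449. Its summit lay 590 bp upstream of the start of E(spl)m2-BFM, in the Enhancer of split cluster of Notch targets. It ranked 223 in replicate 1 and 508 in replicate 2. lncRNA:CR45226 scored 354 and lncRNA:CR44468 scored 307. lncRNA:CR43334, a transcript with an exon of 15466 bp, held 4 members, the best with a score of 296. Of the 76 members of this class, 70 lay in long noncoding RNAs and 6 in antisense RNAs, and 46 in transcripts of a single exon. A second gene also spanned 21 of them.

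The heat-shock RNA gene lncRNA:Hsromega held 3 members with scores of 73.7, 47.5 and 45.8. The first of these, at rank 5056 in the pool, had no summit within 100 bp in either replicate's full list. The second was listed in replicate 1 alone, at rank 5028, and the third in both, at ranks 10578 and 7884.

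The highest-scoring members in 5' UTRs lay in Raf, baz, eas and Mef2. The member in the second exon of Raf, the kinase that relays signals from receptor tyrosine kinases to MEK, scored 640 and ranked 236 in replicate 1 and 111 in replicate 2. Another peak of the list lay 208 bp from it. The member in baz, the fly Par-3 polarity scaffold, scored 504 with ranks of 292 and 257, and it lay 4489 bp from the nearest start. eas, an ethanolamine kinase gene, followed with a score of 325. Mef2, the muscle transcription factor, held a member in its 5' UTR (score 298) and another in its 3' UTR (score 290), at ranks of 679 and 798 and of 652 and 954 in replicates 1 and 2. The other top members of the class lay in firl (183), the small chaperone gene Hsp22 (171), the kinase gene Ask1 (146) and the lipid kinase gene Pi3K92E (141).

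The annotated exon under most of these summits was optional. In 27 of the 79 5' UTR members (34.2%) the summit was exonic in every transcript that spanned it. For the other members the same base is an intron of another transcript. That transcript can belong to another gene, since several genes spanned 10 of the 79. The share was not taken for all 5' UTR windows away from starts, so it is not read as a trait of the peaks. spen, a large RNA-binding regulator of Notch and EGFR signalling, held 4 members in its 5' UTR, the best with a score of 132. The first exon carried 44 of the 79, and the nearest start was one of the host's own, upstream of the summit, for 68. Over all 79 the median distance to the nearest start of any gene was 762 bp, and 22 members lay within 600 bp of one. For 33 members (41.8%) the peak interval itself reached into the 500 bp window around a start, against 7.80% of intron peaks. A higher-scoring peak lay within 1000 bp of 28 members (35.4%), compared with 20.2% of intron peaks. Intron peaks lay farther from starts, at a median of 2766 bp. Distance and score were not matched, so nothing is read from either contrast.

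The 3' UTR class lies after the stop codon, so its summits fell towards the ends of transcripts by definition. Positions of all 3' UTR windows were not taken for comparison, so nothing is read from this. The class had its median summit 87.8% of the way along the spliced transcript, and 83 of 150 (55.3%) lay within 500 bp of the transcript's end. The strongest was in CG7872, with a score of 588 and ranks of 175 and 197; it lay 58 bp before the end of the transcript. The second, on chromosome 4, lay in a 3' UTR shared by the annotation of sv, the fly Pax2 factor, and Cals, a calsyntenin, with a score of 346. Its ranks were 1130 and 358, so it stood higher in replicate 2. APC7, a subunit of the anaphase-promoting complex, had a member that scored 269 and lay 634 bp upstream of a start of the neighbouring pigs. NetB, a netrin axon guidance cue, scored 262, CG33307 scored 256, Ance-3 scored 253 and by, the fly tensin, scored 230.

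A neighbour's start was often the nearest to these peaks. For 84 of the 150 the closest transcript start belonged to a gene other than the host, and 48 of these summits lay upstream of that start and 36 downstream. This share was not taken for all 3' UTR windows either, so it is not read as a trait of the peaks. The median distance to a start was 1868 bp and the farthest was 27227 bp, in the range of intron peaks with a median of 2766 bp. In 129 members (86.0%) the summit was exonic in every spanning transcript, the highest share of the 4 classes. Some genes carried a pair of summits about 200 bp apart, as in CG33307, so these are not independent sites. Across all classes 32 members had another peak of the list within 250 bp.

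Coding exons held the fewest members, 54, and most had low scores. otp, a homeobox factor of the nervous system, had the strongest, with a score of 252 and ranks of 983 and 1069. klar, which encodes a protein that links nuclei and lipid droplets to microtubule motors, scored 234 and ranked 1854 in replicate 1 and 728 in replicate 2. CG10357 scored 192 and Pde1c, a phosphodiesterase, scored 175. Ubr1, a ubiquitin ligase of the N-degron pathway, scored 155, l(3)mbn 132, par-1, a polarity kinase, 101 and CG11668 84.1. Away from these 8 the scores were low, and the upper quartile of the class was 60.0. In 45 of the 54 (83.3%) every spanning transcript was exonic at the summit.

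**Figure D3:**
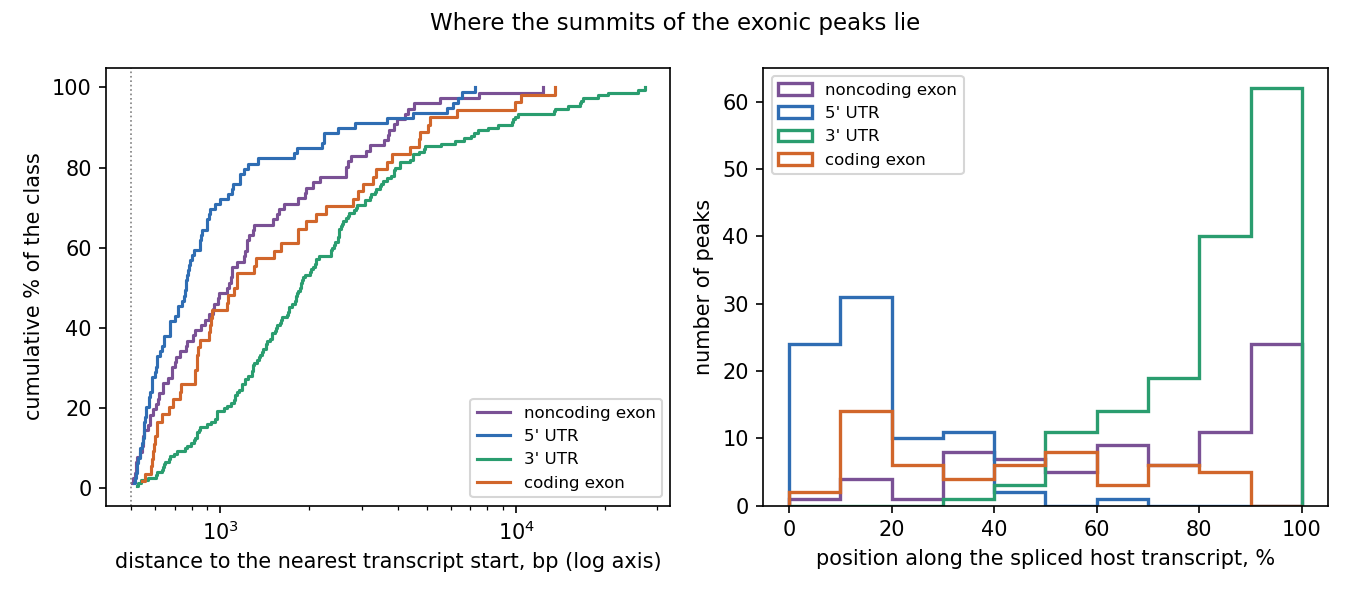
Cumulative share of each class by distance of the summit from the nearest transcript start, with the 500 bp limit dotted (left), and number of peaks by position along the spliced host transcript (right). Peaks in 5' UTRs have a median distance of 762 bp. Peaks in 3' UTRs lie towards the end of the transcript by definition of the class, with a median position of 87.8%.

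The promoter motifs TATCGATA and GGTCACAC were rare under the exonic summits. Windows of 201 bp centred on each summit were searched on both strands for 13 motifs. TATCGATA was found in 2 of 359 member windows (0.557%), against 8.0% of promoter peaks, 6.79% of 23584 promoters (250 bp before to 50 bp after a start) and 0.266% of all exonic windows. GGTCACAC, the core promoter element called motif 1, was found in 0 of 359, in 0.196% and 0.224% of the exonic peaks of replicates 1 and 2, and in 5.6% of promoter peaks. Its share in all exonic windows was 0.295%. CGATA, the core of the BEAF-32 site, which lies within TATCGATA, was in 25.1% of members, 39.7% of promoter peaks and 23% of exonic windows. Intron peaks also had few matches to TATCGATA, at 0.512%. The rule leaves out every summit within 500 bp of a start, so lower shares than at promoter peaks can follow from the rule. Nothing is read from that contrast.

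The CTCF core AGGTGGCG was present in 7 member windows (1.95%), in 0.867% of promoter peaks, 0.663% of intron peaks and 0.925% of exonic windows. Over exonic peaks as a whole this share was not stable: it was 0.980% in the list of replicate 1, 2.68% in that of replicate 2 and 0.874% among the exonic peaks of the first 20000 pooled ranks. Of the 7, 5 lay in coding exons, which is 9.26% of the 54 coding members against 1.17% of all coding windows and 0.717% of promoters. Within the optimal set the match was in 3 of 7 coding members, in 0.962% of all 3533 peaks and in 4 of 1009 intron peaks. These were klar, CG10357 and Pde1c, 3 of the 4 highest-scoring coding members. Hr4, an ecdysone-induced nuclear receptor, had the match in its 3' UTR, 1 bp from the summit, and scored 219 at ranks 2152 and 869. Among the coding peaks of each replicate's own list, 3 of 71 held the core in replicate 1 and 7 of 119 in replicate 2. A match is a description of the letters and not evidence that CTCF is there.

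Repeats of CA marked the 5' UTR members. CACACACA was found in 16 of 79 (20.3%), in 6.96% of all 5' UTR windows and in 4.57% of promoter peaks. It was in 16 of the 5' UTR peaks of replicate 1's list, which holds 87, and in 16 of the 93 in replicate 2. The strongest hosts were JIL-1, a kinase of histone H3 (score 131), and Nup153, a nuclear pore protein (score 130). GAGAGAG, the site of GAGA factor, was in 8 of 79 (10.1%), beside 4.92% of 5' UTR windows. In coding members CAGCTG, an E-box bound by basic helix-loop-helix factors, was in 15 of 54 (27.8%) against 14.3% of coding windows. CAGCAGCAG was in 7.41% of coding members and in 4.81% of coding windows. Counts of this size in 54 or 79 windows shift by many percent with a few peaks.

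**Figure D4:**
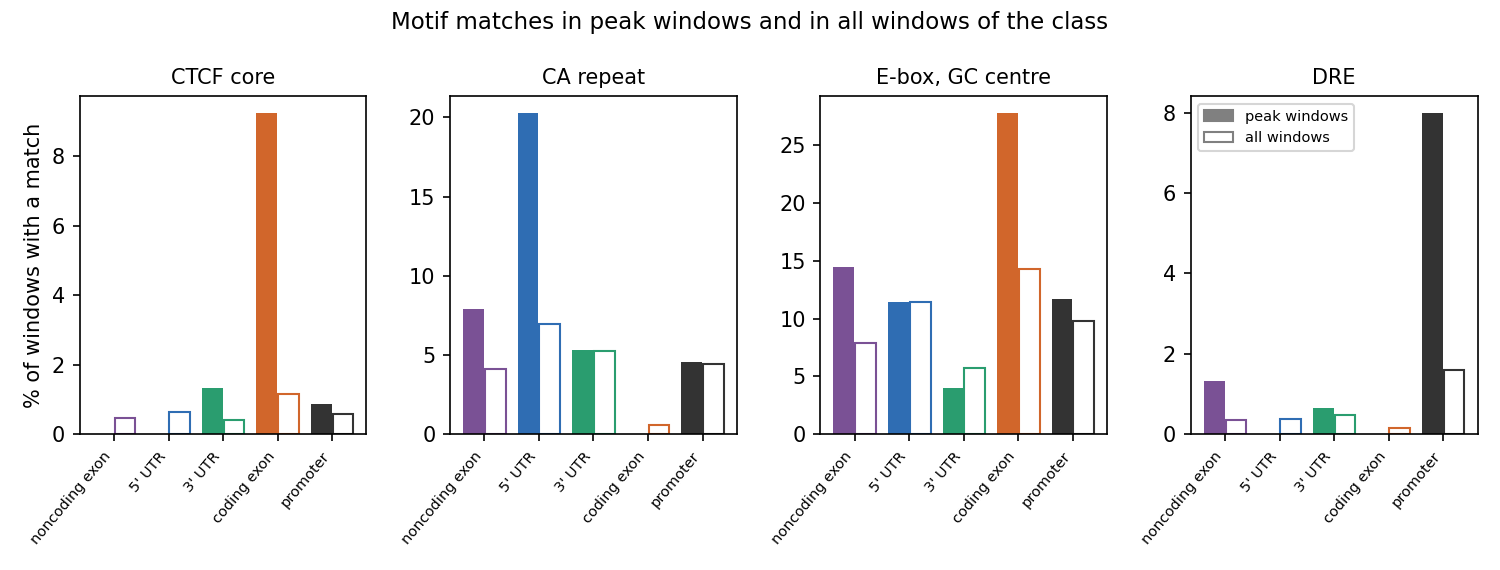
Share of windows with a match to each of 4 motifs, for windows centred on peak summits (filled bars) and for all genome windows of the class (open bars). The CTCF core is in 9.26% of coding-exon peaks and 1.17% of coding windows, the CA repeat in 20.3% of 5' UTR peaks and 6.96% of 5' UTR windows, and the DRE in 8.0% of promoter peaks.

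Letters rich in A and T were more frequent under exonic summits than in exons at large, and about as frequent as under all peaks. TATAAA was in 28.7% of members, 14.2% of exonic windows and 31.6% of all 10000 peaks. AAAAAAAA was in 11.4% of members, 5.36% of exonic windows and 14.1% of all peaks. Of the 131733 exonic windows 87400 were coding, unlike the members, so these contrasts mix classes. Within 3' UTRs TATAAA was in 33.3% of members and 31.5% of windows, and within coding exons in 7.41% and 6.87%. In 5' UTRs the values were 30.4% and 16.7%, and in noncoding exons 32.9% and 22.9%. AAAAAAAA was less frequent in 3' UTR members (8.67%) than in 3' UTR windows (13.8%), and more frequent in the other classes. CACGTG was in 1.39% of members, 2.61% of exonic windows and 2.00% of all peaks. GCATACTT, the Su(Hw) core, was in 1.11% of members, 0.589% of exonic windows and 1.12% of all peaks. CAGGTAG, bound by Zelda, was in 0.557% of members and 0.910% of all peaks, but in 1.18% and 1.12% of the exonic peaks of replicates 1 and 2, so no direction is read from it. Median GC of the windows was 39.3% in members. By class it was 51.5% in coding exons, 42.8% in 5' UTRs and 36.3% in both 3' UTRs and noncoding exons. All windows of those classes had medians of 52.2%, 45.3%, 36.3% and 42.3%, so noncoding exons with a peak were poorer in GC than noncoding exons at large. This was not particular to noncoding exons. Promoter peaks had a median of 36.8% against 42.8% of promoter windows, intergenic peaks 35.8% against 40.8% and intron peaks 37.3% against 40.3%.

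How often a member recurred in both replicates depended on its rank. A summit counted as found when a replicate's 10000 best peaks held a summit within 100 bp. The pooled list was made from the same libraries, so this is no independent check. By that measure 148 of the 359 (41.2%) were found in both replicates, against 56.6% of all 10000. The share was 56.6% in noncoding exons, 41.8% in 5' UTRs, 39.3% in 3' UTRs and 24.1% in coding exons. Among the first 3533 ranks 65 of 66 members (98.5%) were found in both, beside 94.8% of all peaks. Those ranks are the optimal set, which was chosen as reproducible between these replicates, so high shares there are built in. Between ranks 3534 and 7000 the shares were 61.4% and 59.6%, and beyond rank 7000 they were 7.26% and 8.03%. At matched rank the exonic peaks therefore recurred about as often as the list as a whole.

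The replicates leaned to different exon classes. Of the 277 members present in both full lists, 140 ranked better in replicate 1 and 137 in replicate 2. Among 3' UTR members 73 of 117 (62.4%) ranked better in replicate 1, and among coding members 11 of 38 (28.9%) did so. The whole lists showed the same lean: the 10000 best peaks of replicate 1 included 269 in 3' UTRs and 71 in coding exons, and those of replicate 2 included 163 and 119. Of all peaks of the pooled list present in both full lists, 51.1% ranked better in replicate 1. The share was 56.5% for intron peaks, 56.1% for intergenic peaks and 46.3% for promoter peaks. The 3' UTR members thus leaned the same way as intron and intergenic peaks. The median GC of peak windows was 36.3% in the list of replicate 1 and 37.8% in that of replicate 2. Across the 277 members GC and the log2 ratio of rank in replicate 2 to rank in replicate 1 had a Spearman's rho of -0.25, and across 8078 peaks of all classes it was -0.20. These points share libraries, and the part of GC in the lean was not tested.

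**Figure D5:**
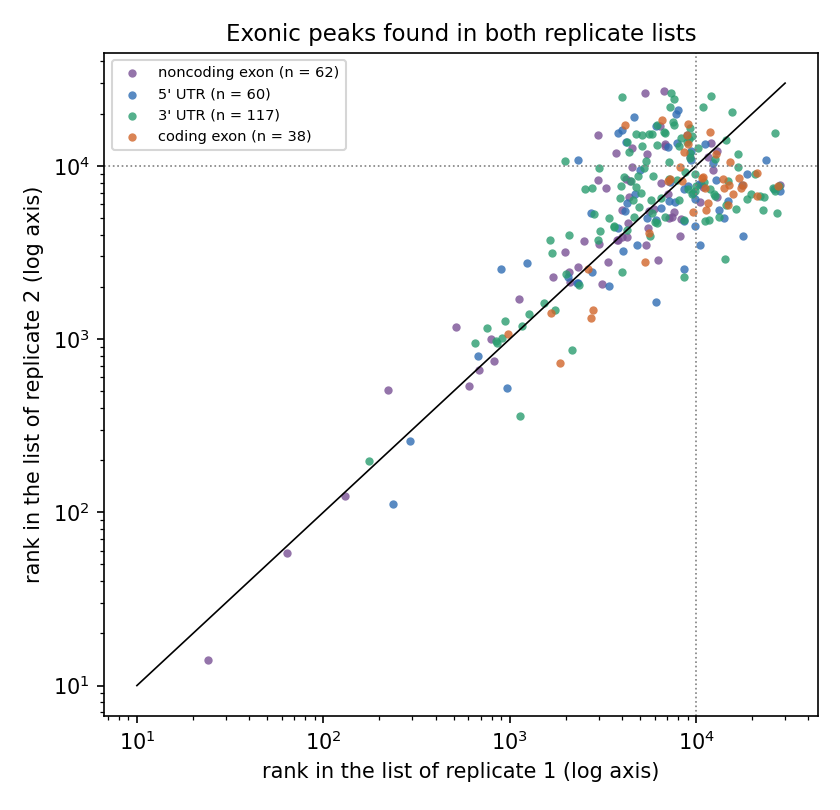
Rank of each of the 277 exonic peaks found in both full replicate lists, replicate 1 on the horizontal and replicate 2 on the vertical log axis, coloured by class. The diagonal marks equal rank and dotted lines mark rank 10000. Top peaks lie near the diagonal, and 27 of 38 coding peaks lie below it, with a better rank in replicate 2.

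The members belonged to 313 host genes, of which 37 held more than 1 and together carried 83 members. Among protein-coding genes 257 of 13945 (1.84%) held at least 1 member. Of these hosts 181 (70.4%) also had a peak of the list within 500 bp of a start of their own, against 37.7% of all protein-coding genes. The share was 82.4% for hosts of 5' UTR members, 66.4% for hosts of 3' UTR members and 70.6% for hosts of coding members. With optimal peaks at the start the shares were 32.3% of hosts and 19.1% of all genes. Long genes with several starts can hold more peaks of every kind, and host length was not matched here.

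In the pooled list ecdysone genes had the largest share of hosts among the 8 gene lists. Ecdysone is the steroid hormone whose pulses drive wandering and pupation, and its receptor switches on a cascade of early and late genes. Of 28 listed genes of the receptor and its response, 8 (28.6%) held a member. These were EcR, the receptor itself, the early genes br, Eip74EF and Eip75B, the nuclear receptors Hr4 and ftz-f1, gce, a juvenile hormone receptor, and shd, the enzyme that makes the active hormone. Because exon length matters, members were also counted per Mb of exon more than 500 bp from a start. The list held 78.2 per Mb and all protein-coding genes 11.1. On each replicate's own list the count was 7 of 28 in replicate 1 and 5 of 28 in replicate 2. In replicate 1 the RNA-binding list, described below, had the same share, with 11 of 44. In replicate 2 the signalling list came near, with 10 of 62. The replicate lists held 510 and 447 exonic peaks, more than the 359 of the pool. The share over all protein-coding genes was not taken in them.

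Most of these ecdysone members were weak and their replicate ranks uneven. Hr4 alone, at pooled rank 1197, was in the optimal set. br, a zinc finger factor of the pupal switch, held 3 members, at scores of 59.7, 48.6 and 46.6, and 2 of these were not found in the list of replicate 1. Eip75B scored 68.3, with a rank of 17772 in replicate 1 and 3909 in replicate 2. The EcR members scored 50.5 in the 5' UTR and 47.6 in the 3' UTR, and in replicate 2 they ranked 19997 and 15181. shd scored 62.5 and was found in replicate 1 alone. ftz-f1 scored 55.1, gce 49.5 and Eip74EF 46.9, and in replicate 2 they ranked 15452, 16958 and 17260.

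Against 1.84% of all protein-coding genes, signalling genes held members in 6 of 62 (9.68%), namely the insulin receptor InR, the translation inhibitor Thor, the EGFR effector aop, the Wnt factor pan, the kinase sgg and the Hippo kinase wts. They scored from 48.6 in pan to 94.7 in wts. RNA-binding genes held members in 4 of 44 (9.09%), namely AGO1 (90.7), Syp (72.5), pAbp (51.6) and Rbp9 (44.6). Of 57 patterning factors (3.51%) br and ct did, the latter with a score of 77.8, and of 43 chromatin genes (4.65%) Su(z)2 (71.2) and osa (55.5) did. In the pooled list RpS26 was the 1 host among 92 ribosomal protein genes, picked by symbol, with a score of 69.0. chic, which encodes profilin, held 2 members and was the 1 host among 47 cytoskeletal genes, and Syt1 was the 1 host among 38 neuronal genes. These shares, 1.09% for ribosomal, 2.13% for cytoskeletal and 2.63% for neuronal genes, lie near the 1.84% of all protein-coding genes. Counts this small moved between lists, and the share over all genes was not taken in the replicate lists. In replicates 1 and 2 the hosts numbered 7 and 4 among chromatin genes, 3 and 2 among cytoskeletal genes, 4 and 2 among neuronal genes, 3 and 1 among ribosomal genes, and 4 and 3 among patterning factors. They numbered 11 and 6 among RNA-binding genes and 6 and 10 among signalling genes. Per Mb of reachable exon the signalling list held 23.4, the RNA-binding list 15, the patterning list 20.6, the chromatin list 9.19, the cytoskeletal list 5.01 and the neuronal list 3.0. The ribosomal genes offered 0.0361 Mb in all, where 1 member makes 27.7 per Mb.

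Chromosome 4, a small and largely heterochromatic chromosome, carried 14 members (3.90%), while 1.16% of the 10000 peaks lay there. Among its hosts were sv, Hcf and pan, and pairs of members in Eph and PlexA, guidance receptors of axons. The other arms held between 15.9% and 22.0% of members. The 31 bases at the summit occurred once in the genome for 357 of the 359 members, the exceptions being Hcf and CG12581, each with 2 copies. Widths were 400 bp, the caller's usual width in this list, for all but 30 members, of which 28 were narrower. Neither CG9705 itself nor w, the eye colour gene that often marks transgenes, held a member.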

How the data were processed

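Peak lists on dm6 were used as deposited: relaxed lists of 30000 peaks for each replicate and the pool, and the optimal set of 3533. Per the deposited file notes they derive from alignments and 1 control file. Not given in the sources used here: aligner, peak caller and IDR threshold. Per the labels, chromatin was sonicated to 200 to 800 bp. The score deposited by the authors has no stated scale and ranked peaks within a list. The deposited −log10 q value is tied at its maximum for the best peaks and was not used to rank. No read counts are given, so depth is unknown.

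Summits took 1 class in the order promoter, 5' UTR, 3' UTR, coding exon, other (noncoding) exon, intron and intergenic, from Ensembl release 115 (BDGP 6.54) without transposable elements. Sequence came from RefSeq Release 6. Windows held 100 bp on either side of the summit. Positions printed are 1-based. Python 3.11.15, numpy 2.4.6, pandas 2.3.3 and matplotlib 3.10.9 were used, and classes, matches and motif searches were tested on planted positions.

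Named genes are the hosts of the 25 highest-scoring members, the 8 highest-scoring of each class, genes with 2 or more members, listed genes with a member, the 3 members on either side of each limit, and CG9705 and w. Hosts of motif matches were named after their values were seen. One member that the rule names is not reported here. Members, 8 gene lists and 13 motifs were chosen with earlier results of these data known. Alternatives were other start windows, rank limits, annotations, class orders, window sizes and match rules, and each replicate alone. With 1 group of 2 samples no test between samples was possible, and the spread between the replicates may be technical.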

Additional observations from a re-analysis of the deposited data

How the results depend on the processing

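With RefSeq genes the number of members and all 4 class counts were unchanged. How far the RefSeq and Ensembl gene models are independent was not examined, so this swap is no test of robustness to annotation. The counts moved by less than 1.5 times with transposable elements kept or coding exons put before UTRs. The choices in the rule itself moved the counts. With start windows of 250 and 1000 bp there were 567 and 212 members, with 83 and 30 in coding exons, 174 and 22 in 5' UTRs and 132 and 39 in noncoding exons; the shares exonic in every transcript were 67.2% and 75.9% and the median distances 674 and 2260 bp. At rank limits of 3533, 5000 and 20000 the members numbered 66, 109 and 1716, with 7, 8 and 500 in coding exons, 24, 41 and 832 in 3' UTRs, 14, 25 and 201 in 5' UTRs and 21, 35 and 183 in noncoding exons. The share exonic in every transcript was 63.6% at 3533 and 79.8% at 20000, where the median distance was 1553 bp. Recurrence in both replicates was 98.5%, 89.0% and 8.68% at those limits. It was 48.7% with summits matched within 250 bp, 77.2% against all relaxed peaks and 13.9% against as many replicate peaks as the optimal set holds.

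With 1 replicate left out, members numbered 447 to 510, those in coding exons 71 to 119 and those in 3' UTRs 163 to 269. The share exonic in every transcript was 72.5 to 75.3%, the median distance 1240 to 1442 bp and the median width 380 to 396 bp. Listed genes holding a member were 24 in the pooled list and 32 to 44 in the lists of single replicates, an alternative chosen after seeing the data, as were the replicate counts of the CTCF core and the CA repeat. Median GC stayed within the spread between replicates under each alternative. Windows of 50 and 200 bp on either side gave CTCF core shares of 1.67% and 3.34%. The cause of these shifts was not tested. Depth is unknown, and counts of few peaks limit what the motif and list shares can show.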
